A study of Petunia x hybrida with 48 samples.

Results

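The 7 genes described here act after hormone perception in abscisic acid (ABA) signalling, and they were followed through axillary buds of petunia (Petunia x hybrida, inbred line V26) at different nodes and phosphate (P) supplies. They are ABI2 (Peaxi162Scf00494g00411.1), SnRK2.6 (Peaxi162Scf00016g01538.1), ABF2 (Peaxi162Scf00252g00228.1), ABF3 (Peaxi162Scf00003g02333.1), ABI5 (Peaxi162Scf00290g00115.1), AFP3 (Peaxi162Scf01312g00016.1) and HB7 (Peaxi162Scf00074g00025.1). The members are the genes with these identifiers, all 7 were found among the 34303 genes listed in either experiment, and all 7 passed the filter on low values in both. The study named them as ABA genes after analysing these same libraries, so a shared direction among them is not independent evidence.

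Plants grew in hydroponic culture, and RNA of whole buds at nodes 7, 6, 3 and 2 was sequenced 24 h after the medium was changed. In experiment 1, plants raised in high P (250 µM) were transferred to low P (5 µM) or kept in high P with fresh medium. In experiment 3, plants raised in low P were transferred to high P or kept in low P. Each experiment holds 24 libraries, 3 for each of 8 groups of bud and P treatment, and each library was made from its own pool of buds, taken from several plants. By the number of plants grown, the buds of different nodes in a P treatment must share plants. The tests below did not pair them, except where a block is named. All plants share 1 genotype, and no group carried a transgene or a hormone treatment. Nodes are counted from the base, so bud 2 is the most basal bud and bud 7 the most apical. The comparisons ask how the ABA genes differ with bud position and how they respond to the change of P within a bud.

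In the ABA pathway as known from Arabidopsis, receptors of the PYR/PYL family bind the hormone and then hold protein phosphatases of type 2C, which frees SnRK2 kinases to phosphorylate transcription factors of the bZIP class. Those factors bind ABA-responsive elements and switch on genes for water stress protection and further regulators, among them homeobox genes and the phosphatases themselves. In axillary buds ABA is known as a hormone that accompanies dormancy and delays outgrowth. The petunia genes carry the names of their closest Arabidopsis genes in the tables of the study, and the roles given below are those known in Arabidopsis.

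Values are estimated read counts per gene that the authors scaled between libraries, called normalized counts here, and they summed per library to between 39733086 and 46381919 in experiment 1 and between 82964169 and 95608712 in experiment 3. The experiments were normalized apart, so levels were tested within an experiment only. Levels of different genes are not compared, because a normalized count also depends on transcript length. A gene was called when limma gave an adjusted p below 0.05 and a difference of more than 2-fold, and each log2 fold change is on the log2(normalized count + 1) scale with its standard error. In each experiment a single fit used all 24 libraries, with 22363 genes tested in experiment 1 and 22584 in experiment 3.

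Each library was correlated over all tested genes with the mean of the other pools of each bud in its treatment. Its own bud came first for 18 of 24 libraries of experiment 1 and 13 of 24 of experiment 3, and in 5 of the 6 and 8 of the 11 exceptions buds 6 and 7 changed places. Pool 1 of high P bud 3 in experiment 1 was slightly nearer to bud 2 (Pearson's r of 0.977) than to bud 3 (0.970). All 3 low P bud 3 pools of experiment 3 were nearer to another bud, pools 1 and 2 to bud 6 (0.979 against 0.963, and 0.984 against 0.980), where their own bud's mean includes pool 3. Pool 3 stood furthest from its label, with 0.976 for bud 2 and 0.929 for bud 3. Its summed level of CDKB1 and CDKB2, cyclin-dependent kinases of dividing cells, was 7190.0, against 25710.0 and 17661 in the other low P bud 3 pools and 6848 to 7718 in low P bud 2. Results that rest on this pool are therefore given with and without it.

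In experiment 1 the ABA genes fell together in the apical buds. All 7 members were called lower in bud 6 than in bud 2, under low P as under high P, where 21.8% and 23.5% of all tested genes were called lower. In bud 7 against bud 2, 6 of 7 members were called lower in each treatment, beside 20.6% of all genes in low P and 20.5% in high P, and ABI5 was the exception. Between bud 3 and bud 2, limma called 0 of 7 members in either treatment, beside 1.55% of all genes in low P and 0.868% in high P, and 1 member, SnRK2.6, had an unadjusted p below 0.05 in each. At that unadjusted level, in either direction, stood 4843 of 22363 genes in low P and 4337 in high P. The median log2 fold change of the members in bud 6 against bud 2 was -2.01 in low P and -2.17 in high P, while the median over all tested genes was -0.05 in low P and -0.06 in high P. Against bud 3, all 7 members were called lower in bud 7 and in bud 6 in both treatments, where 18% and 18.9% of all genes were in low P and 18.5% and 21.6% in high P, and the 1 call that depended on a library was ABI5 in high P bud 7, lost without pool 2 of high P bud 3 (-0.91). The comparisons of buds 7, 6 and 3 share their bud 2 libraries. In RNA of whole buds, fewer cells that express a gene and less RNA per cell cannot be told apart.

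In experiment 3 the 7 genes were called lower in buds 7 and 6 of plants given high P, and most of them in bud 3. Of 7 members, 7 were called lower in bud 7, 7 in bud 6 and 5 in bud 3 against bud 2, where 19.3%, 18.8% and 17.5% of all genes were called lower. In bud 3 the test was not passed by ABI5 (-0.74 ± 0.42, adjusted p = 0.125) or AFP3 (-1.26 ± 0.87, adjusted p = 0.208). In plants kept in low P, the counts were 5 in bud 7, 5 in bud 6 and 4 in bud 3, beside 16.5%, 13.4% and 8.97% of all genes, and ABI5 and AFP3 were not called in any of these 3 buds. The low P bud 3 count rested on few libraries. It was 0 without pool 1 of low P bud 2, 0 without pool 1 and 0 without pool 2 of low P bud 3, and 6 without pool 3 of low P bud 3, when 16.03% of all genes were called lower. The median of the members in bud 6 against bud 2 was -1.95 in high P and -1.44 in low P, with -0.03 in high P and 0.01 in low P for all genes. Against bud 3, limma called 0 of 7 members in high P bud 7 and 0 in high P bud 6, beside 1.12% and 0.505% of all genes called lower. At an unadjusted p below 0.05 there were 4 members in bud 7 and 5 in bud 6, all with lower estimates than bud 3. At that level, in either direction, stood 2628 of 22584 genes in bud 7 and 2485 in bud 6.

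**Figure D1:**
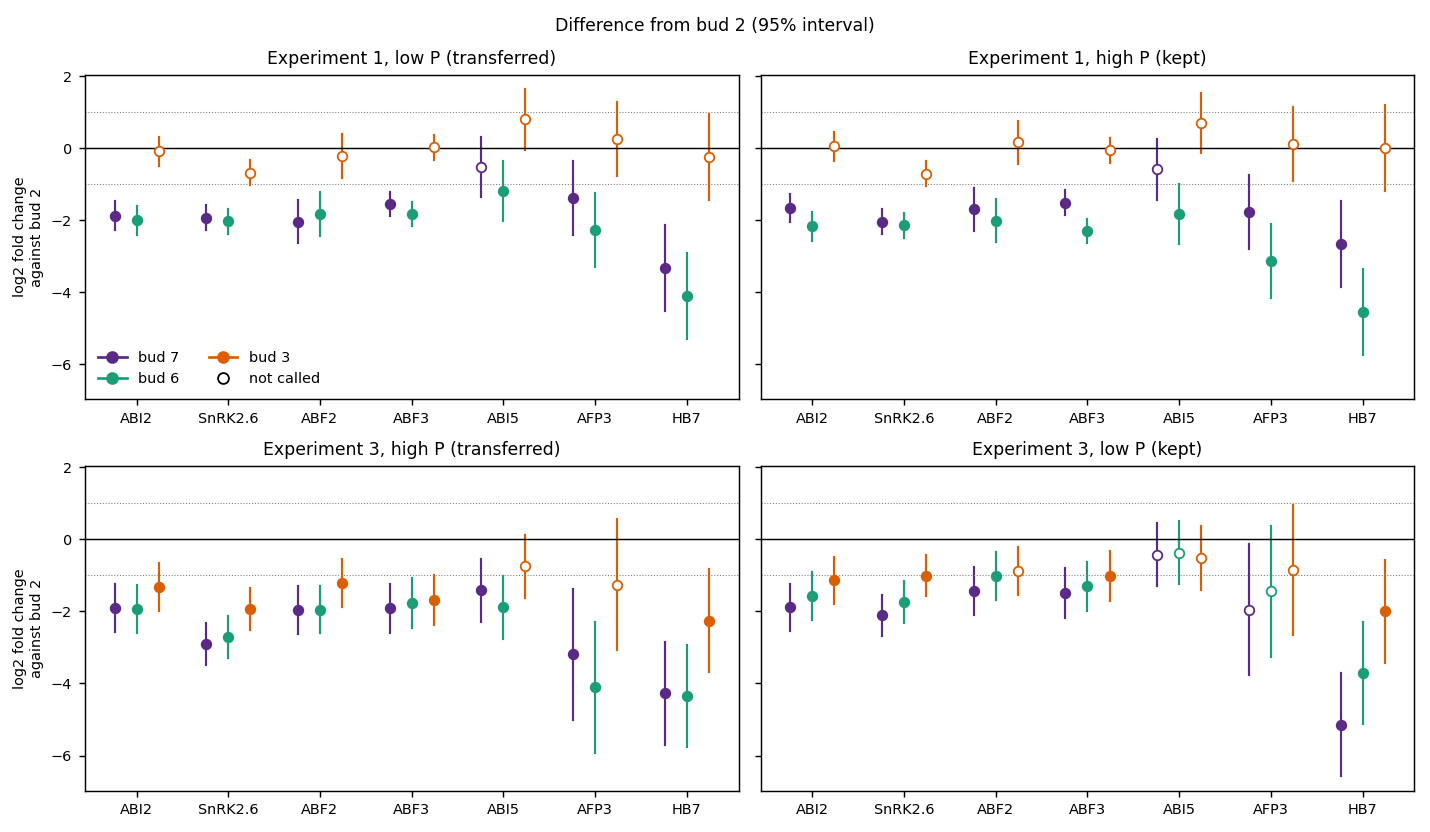
Log2 fold change of each member in buds 7, 6 and 3 against bud 2, by experiment and P treatment, on the log2(normalized count + 1) scale. Points are estimates from 3 pools against 3, lines are 95% intervals, open points were not called, and the dotted lines mark a 2-fold difference. In experiment 1 the bud 3 points lie between -0.71 and 0.79, and in experiment 3 they lie below 0 for every member.

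Markers of other tissues also differed between the buds. In high P of experiment 1, the CDKB sum was 11569 to 14479 in bud 6 and 2031 to 3554 in bud 2, and the sum of 2 PDF1 genes of the bud epidermis was 78232 to 83387 in bud 6 and 11208 to 16075 in bud 2. Vascular markers (4 genes) summed to 1237 to 1686 in bud 6 and 1819.6 to 2639 in bud 2, leaf markers (7 genes) to 84674 to 123305 in bud 6 and 121094 to 167628 in bud 2, and the meristem gene TRN2 to 39.2 to 66.4 in bud 6 and 264 to 299.7 in bud 2. In high P of experiment 3 the vascular sum was 3580.1 to 4793 in bud 6 and 6193 to 11293 in bud 2, while the leaf sum was 67916 to 121342 in bud 6 and 45167 to 55912 in bud 2. The genes within a sum did not all move alike. In high P bud 6 against bud 2 of experiment 1, 1 vascular gene was called higher and 2 lower. There 1 leaf gene was called higher and 1 lower, beside 16.7% and 23.5% of all genes. In experiment 3, 0 vascular genes were called higher and 2 lower, and 3 leaf genes higher and 0 lower, beside 13.1% and 18.8%. Every marker was detected in every group, and the part of tissue makeup in the differences of the ABA genes was not tested.

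ABI2, a phosphatase of type 2C that keeps SnRK2 kinases inactive and is itself induced by ABA, separated the buds of experiment 1 into a low and a high pair. Its normalized counts in plants moved to low P ran over 544 to 616 (bud 7), 467 to 629 (bud 6), 1685 to 2306 (bud 3) and 1869 to 2373 (bud 2). In plants kept in high P they were 712, 727 and 606 (bud 7), 505, 512 and 423 (bud 6), 2043, 3187 and 1684 (bud 3) and 2614, 2244 and 1701 (bud 2). No library of buds 6 and 7 reached any library of buds 2 and 3, and the log2 fold change of bud 6 against bud 2 was -2.01 ± 0.19 in low P and -2.17 ± 0.19 in high P (limma adjusted p = 1.63e-08 and 4.91e-09). Bud 3 lay at -0.09 ± 0.19 in low P and 0.05 ± 0.19 in high P relative to bud 2, neither of them called.

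In experiment 3, ABI2 had normalized counts of 894, 821 and 1273 (bud 7), 1078, 830.4 and 980.3 (bud 6), 1294, 1738 and 1413 (bud 3) and 3700.1, 3333 and 3973 (bud 2) after the move to high P. Plants kept in low P had 1712, 2178 and 2346 (bud 7), 3168, 2303 and 2345 (bud 6), 2393, 2325 and 7471 (bud 3) and 9613, 6017 and 7681 (bud 2). High P values lay below low P values in each of the 4 buds without overlap, and within each treatment the highest means were those of bud 2, though pool 3 of low P bud 3 fell inside the range of low P bud 2. The fold change of bud 6 against bud 2 was -1.93 ± 0.32 in high P and -1.57 ± 0.32 in low P (limma adjusted p = 7.19e-05 and 6.23e-04).

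SnRK2.6 is a kinase that ABA releases from the phosphatases and that is best known from stomatal guard cells. In experiment 1 it was the single member with an intermediate bud 3 in both treatments. Low P libraries ran over 365.8 to 438 (bud 7), 325 to 489 (bud 6), 849 to 1070.5 (bud 3) and 1434 to 1623 (bud 2). High P libraries had 520.0, 389 and 369 (bud 7), 463, 402 and 325.7 (bud 6), 1212, 918 and 1074 (bud 3) and 1618, 1715 and 1891 (bud 2). Bud 3 libraries thus lay between the apical buds and bud 2 without overlap on either side. The log2 fold change of bud 3 against bud 2 was -0.69 ± 0.16 in low P and -0.71 ± 0.16 in high P (limma adjusted p = 0.0153 and 0.0254), less than the 2-fold needed for a call. Bud 6 was called lower than bud 2, at -2.03 ± 0.16 in low P and -2.14 ± 0.16 in high P.

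In experiment 3 the highest SnRK2.6 means were again those of bud 2. After resupply SnRK2.6 stood at 540.2, 656 and 459 (bud 7), 572.8, 527 and 805 (bud 6), 1007, 1291 and 941 (bud 3) and 4101, 4181 and 3979.6 (bud 2). Plants kept in low P had 1282, 1558 and 1069 (bud 7), 2040.2, 1847 and 1249 (bud 6), 1736, 2534 and 4819.8 (bud 3) and 6237, 4939 and 5622 (bud 2). Relative to bud 2, the high P fold changes were -2.90 ± 0.27 in bud 7, -2.71 ± 0.27 in bud 6 and -1.93 ± 0.27 in bud 3, all 3 called. In low P they were -2.11 ± 0.27 in bud 7, -1.73 ± 0.27 in bud 6 and -1.01 ± 0.27 in bud 3, also called, and the bud 3 value was -1.41 without the pool that stood apart. The bud 3 call in low P was lost without pool 1 of low P bud 2, without pool 1 and without pool 2 of low P bud 3 (-0.93, -0.67 and -0.95). SnRK2.6 was also lower in low P bud 7 than in low P bud 3 (-1.10 ± 0.27, adjusted p = 0.0250), where 3.32% of all genes were called lower and 2 of 7 members were, a call lost without pool 3 of low P bud 3, without pool 1 or pool 3 of low P bud 7, with no filter on low values and in the fit to the compared groups. Bud 7 against bud 6 (-0.19 in high P, -0.38 in low P) and bud 6 against bud 3 (-0.78 in high P, -0.72 in low P) were not called.

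ABF2 and ABF3 are bZIP factors that bind ABA-responsive elements once a SnRK2 kinase has phosphorylated them. In experiment 1, ABF2 ran over 408 to 499 (bud 7), 410.1 to 641 (bud 6), 1189.8 to 2096 (bud 3) and 1320.2 to 2588 (bud 2) in low P. In high P its normalized counts were 773, 458 and 362 (bud 7), 437, 426 and 355 (bud 6), 1642, 2391 and 1550.0 (bud 3) and 2241, 1604 and 1220.3 (bud 2). ABF2 thus kept buds 6 and 7 below buds 2 and 3 without overlap in both treatments, and the log2 fold change of bud 6 against bud 2 was -1.83 ± 0.29 in low P and -2.01 ± 0.29 in high P (limma adjusted p = 1.14e-05 and 3.12e-06). ABF3 ran over 740.5 to 865 (bud 7), 649 to 725.4 (bud 6), 2150.2 to 2599 (bud 3) and 2118 to 2566 (bud 2) in low P. In high P it had 1059, 1018 and 843 (bud 7), 766, 490.0 and 461 (bud 6), 2569, 3123 and 2302 (bud 3) and 2884, 3132 and 2340.3 (bud 2). It separated the same buds without overlap, with bud 6 against bud 2 at -1.83 ± 0.16 in low P and -2.31 ± 0.16 in high P (limma adjusted p = 6.04e-09 and 2.29e-10).

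In experiment 3 after resupply, ABF2 had 559, 583 and 629 (bud 7), 546, 623.4 and 621 (bud 6), 1074, 1105 and 826 (bud 3) and 2854, 2124 and 2025 (bud 2). In plants kept in low P it had 1731, 1271 and 1709 (bud 7), 2772, 1621 and 1978 (bud 6), 1801, 1518 and 4374 (bud 3) and 6491, 2977 and 3811 (bud 2). The log2 fold change of bud 6 against bud 2 was -1.95 ± 0.32 in high P and -1.02 ± 0.32 in low P. The low P call lay close to the threshold. It was lost without pool 1 of low P bud 2 (-0.70), pool 2 of low P bud 6 (-0.84) or pool 3 of low P bud 6 (-0.98).

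ABF3 had 1419.6, 1248 and 2009 (bud 7), 1911, 1359 and 1859.7 (bud 6), 1776, 2004 and 1606 (bud 3) and 5399.8, 5089.6 and 6963 (bud 2) after resupply. In low P it had 3178, 3705 and 3569 (bud 7), 4520.5, 3381 and 4024 (bud 6), 2708, 3794 and 10884 (bud 3) and 10313, 8237 and 10946 (bud 2). For ABF3 as for ABF2 the low P bud 3 pools were split, pools 1 and 2 lying near the apical buds and pool 3 within the range of low P bud 2. ABF3 in bud 6 against bud 2 was -1.77 ± 0.33 in high P and -1.31 ± 0.33 in low P (limma adjusted p = 1.98e-04 and 0.00280). ABF2 and ABF3 each have a second petunia homologue in the study's tables, and how reads of similar copies were shared in the authors' counting was not tested.

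ABI5, the bZIP factor known for arresting seedling growth under ABA, had its highest means in bud 3 rather than bud 2 in experiment 1. The low P libraries had 1877, 1514 and 984 (bud 7), 959.6, 1009 and 709 (bud 6), 3867, 4381 and 2521 (bud 3) and 2509.6, 2483 and 1316 (bud 2). The high P libraries had 2021, 1863 and 1176 (bud 7), 1243, 505 and 535 (bud 6), 3536, 6724 and 2689 (bud 3) and 3092, 3276 and 1505 (bud 2). Bud 3 lay above bud 2 without overlap in low P, bud 7 overlapped bud 2 in both treatments, and every neighbouring pair in the order of its 8 group means overlapped. Relative to bud 2 the log2 fold changes in low P were -0.52 ± 0.40 (adjusted p = 0.256) in bud 7, -1.19 ± 0.40 (adjusted p = 0.0120) in bud 6 and 0.79 ± 0.40 (adjusted p = 0.260) in bud 3, and in high P they were -0.59 ± 0.40 (adjusted p = 0.193) in bud 7, -1.83 ± 0.40 (adjusted p = 3.83e-04) in bud 6 and 0.69 ± 0.40 (adjusted p = 0.361) in bud 3 (limma). Bud 6 alone was called, and its low P call was lost without pool 1 of low P bud 2 (-1.03) or pool 3 of low P bud 6 (-1.03).

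In experiment 3 all 4 high P group means of ABI5 lay below all 4 low P group means, the low P bud 3 mean resting on pool 3. Its high P libraries had 1390.4, 879 and 1463 (bud 7), 1063, 671 and 945 (bud 6), 2475, 2329.5 and 1247 (bud 3) and 4021, 2348 and 3585 (bud 2). Its low P libraries had 2731, 4084 and 4297 (bud 7), 4019, 4043 and 3382 (bud 6), 1883, 2543 and 8351 (bud 3) and 7253, 3761 and 4313 (bud 2). In high P, ABI5 fell in bud 7 against bud 2 by 1.41 ± 0.42 on the log2 scale (limma adjusted p = 0.00633). In low P, buds 7, 6 and 3 all overlapped bud 2, and the fold change was -0.43 ± 0.42 in bud 7 and -0.52 ± 0.42 in bud 3, neither of them called. Without the low P bud 3 pool that stood apart, bud 3 was called at -1.16.

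AFP3 belongs to a family of proteins that bind ABI5 and restrain its activity. In experiment 1 its low P libraries had 138, 71.4 and 62.3 (bud 7), 49.4, 40.1 and 46.8 (bud 6), 235, 411.2 and 202 (bud 3) and 214, 364 and 145 (bud 2). The high P libraries had 113.4, 91.0 and 55.7 (bud 7), 53.5, 22.1 and 26.9 (bud 6), 455, 304 and 217 (bud 3) and 670.3, 251.5 and 138 (bud 2). Buds 6 and 7 lay below bud 2 without overlap in both treatments, and bud 6 also lay below bud 7. The log2 fold changes against bud 2 in low P were -1.39 ± 0.49 (adjusted p = 0.0167) in bud 7 and -2.28 ± 0.49 (adjusted p = 3.52e-04) in bud 6, and in high P they were -1.77 ± 0.49 (adjusted p = 0.00343) in bud 7 and -3.13 ± 0.49 (adjusted p = 1.02e-05) in bud 6, by limma. The low P call of bud 7 was lost without pool 2 of low P bud 2 (-1.04), pool 2 of low P bud 7 (-1.26) or pool 3 of low P bud 7 (-1.17), and under quantile normalization (-0.99).

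In experiment 3, AFP3 varied widely between the pools kept in low P. High P libraries had 40.9, 30.7 and 76.3 (bud 7), 16.6, 27.2 and 29.9 (bud 6), 132.5, 308 and 138 (bud 3) and 466, 453 and 369 (bud 2). Low P libraries had 170.2, 93.5 and 246 (bud 7), 465, 89.96 and 272 (bud 6), 413, 78.5 and 1198 (bud 3) and 1774, 144 and 902 (bud 2). In low P, pool 2 was the lowest of the 3 pools in all 4 buds, and within low P bud 2 the SD was 86.8% of the mean, against 12.3% in high P bud 2. In low P the log2 fold change against bud 2 was -1.95 ± 0.87 (adjusted p = 0.0576) in bud 7, not called, and without pool 2 of low P bud 2 it was -3.00 in bud 7 and -2.48 in bud 6, both called. The bud 7 call was also gained without pool 2 or without pool 3 of low P bud 3. In high P the gene was lower in bud 7 than in bud 2 (-3.19 ± 0.87, adjusted p = 0.00348, limma). With the pool number as a block within each P treatment, AFP3 was called in 4 more comparisons of experiment 3, against bud 2 in low P bud 7 (adjusted p = 0.00528), low P bud 6 (-1.44, adjusted p = 0.0296) and high P bud 3 (adjusted p = 0.0475), and in high P bud 6 against bud 3 (-2.85, adjusted p = 0.0287).

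HB7 encodes a homeodomain leucine zipper factor that is induced by ABA and drought. Its counts in apical buds were near 0, so its log2 values there are the least certain of the members. In experiment 1 its low P libraries had 5.63, 5.19 and 6.36 (bud 7), 6.88, 0.939 and 2.96 (bud 6), 54.6, 55.4 and 56.5 (bud 3) and 64.3, 58.4 and 78.9 (bud 2). The high P libraries had 11.2, 9.69 and 6.58 (bud 7), 7.81, 1.18 and 0 (bud 6), 81.2, 69.7 and 42.9 (bud 3) and 95.2, 58.8 and 42.6 (bud 2). Buds 2 and 3 lay above buds 6 and 7 without overlap in both treatments, and 1 high P bud 6 library was listed at 0. The log2 fold change of bud 6 against bud 2 was -4.11 ± 0.57 in low P and -4.56 ± 0.57 in high P (limma adjusted p = 2.40e-06 and 5.58e-07), values that depend on the pseudocount and became -2.52 in low P and -2.53 in high P with a pseudocount of 10.

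In experiment 3, HB7 had 5.66, 6.30 and 5.31 (bud 7), 7.11, 7.90 and 2.61 (bud 6), 29.2, 46.9 and 12.8 (bud 3) and 166, 139 and 93.6 (bud 2) after resupply. In low P it had 7.22, 26.7 and 9.76 (bud 7), 47.6, 32.2 and 28.6 (bud 6), 129, 35.6 and 353 (bud 3) and 1053, 358 and 283 (bud 2). Bud 2 had the highest mean in both treatments, and low P bud 7 held some of the lowest counts although its plants had not received P. In bud 7 against bud 2, HB7 fell, with log2 fold changes of -4.27 ± 0.68 in high P and -5.14 ± 0.68 in low P (limma adjusted p = 5.12e-05 and 1.35e-05). In low P it also differed between bud 7 and bud 3 (-3.14 ± 0.68, adjusted p = 0.0108), a call lost with precision weights, in the fit to the compared groups, without pool 1 or pool 3 of low P bud 7 and without pool 3 of low P bud 3, the value without pool 3 of low P bud 3 being -2.35.

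**Figure D2:**
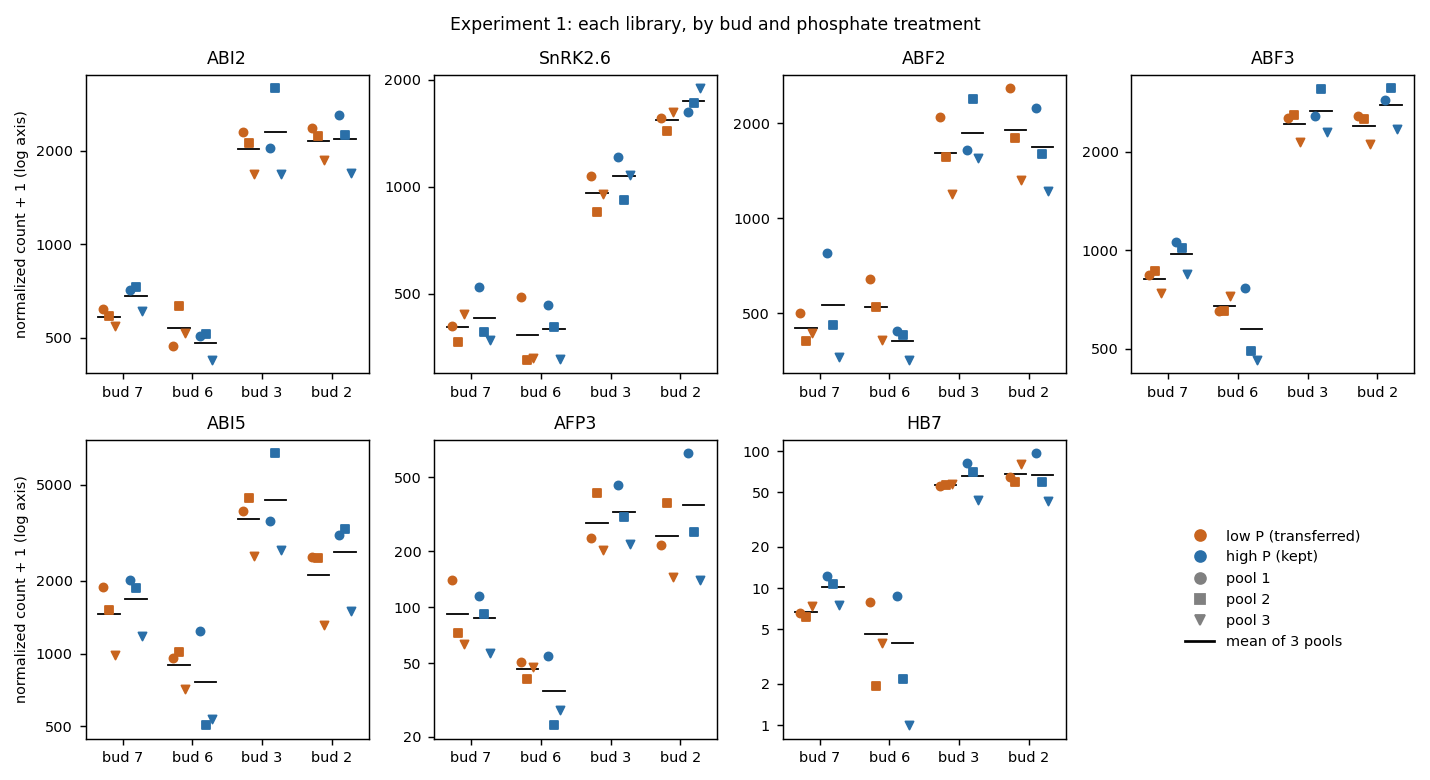
Normalized counts of the 7 members in experiment 1, plus 1 on a log axis, by bud and P treatment. Each symbol is 1 library, its shape gives the pool number, and the bar is the mean of 3 pools. Buds 7 and 6 lie below buds 3 and 2 for all members with partial overlap for ABI5, and SnRK2.6 is the member with bud 3 between the apical buds and bud 2 in both treatments.

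**Figure D3:**
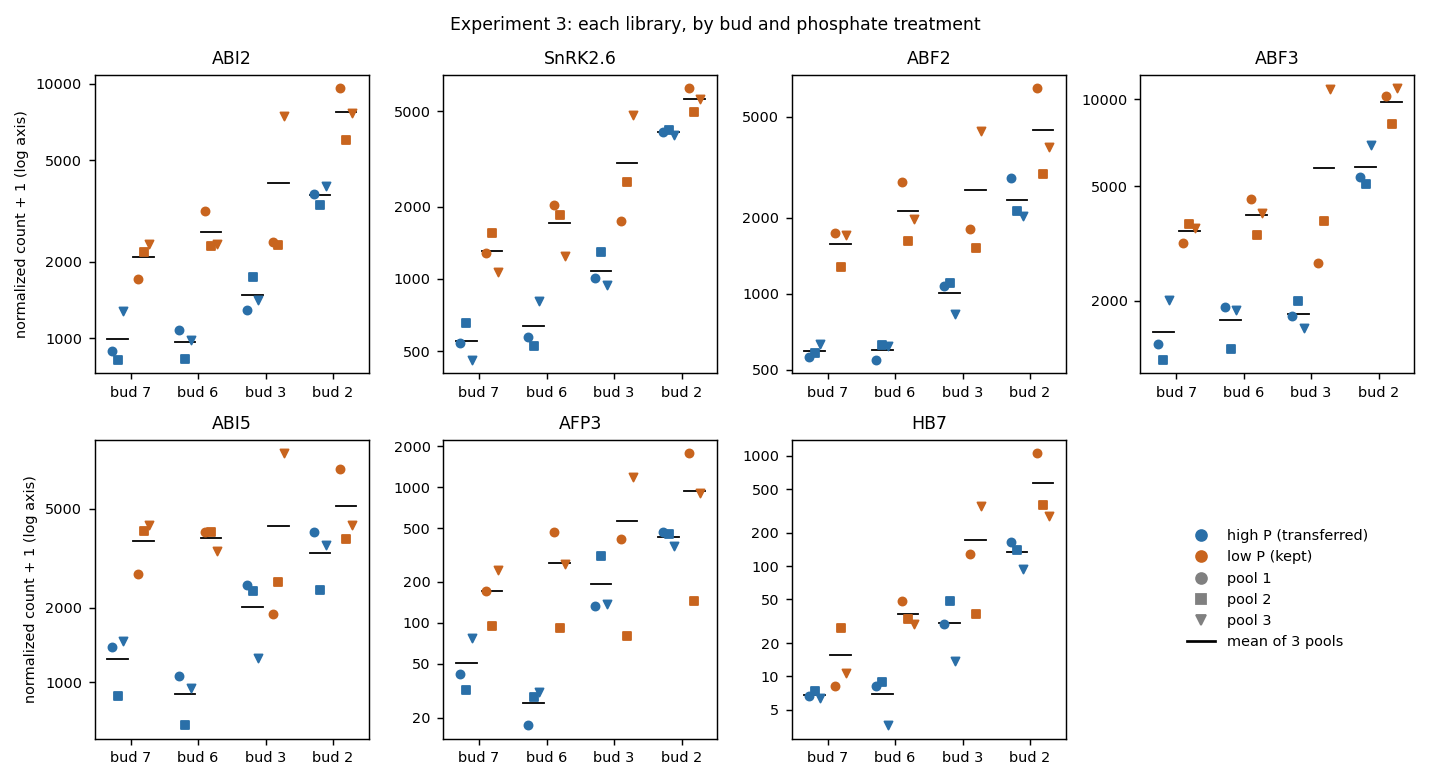
Normalized counts of the 7 members in experiment 3, plus 1 on a log axis, by bud and P treatment, with the same symbols for pools. High P libraries lie below low P libraries in most buds, and pool 3 of low P bud 3 is the highest of its group for every member.

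Ordered by group mean, the 8 groups of experiment 1 began with high P bud 6 for every member but SnRK2.6, for which low P bud 6 was lowest, and the 4 groups of buds 6 and 7 came below the 4 of buds 2 and 3 for all 7. Of the 7 neighbouring pairs in that order, 7 overlapped between pools for ABI5, 6 for ABI2 and ABF2, and 5 for SnRK2.6, ABF3, AFP3 and HB7. In experiment 3 high P buds 6 and 7 were the 2 lowest groups and low P bud 2 the highest for all 7 members. In between, high P bud 2 came above the low P apical buds for every member but ABI5, for which it lay below them, and 5 neighbouring pairs overlapped for each member except ABI5 with 7 and HB7 with 6.

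Between the apical buds no member was called in limma's fit, though 5 of 7 had an unadjusted p below 0.05 in high P of experiment 1, all higher in bud 7 than in bud 6. In that comparison 4595 of 22363 genes, in either direction, had an unadjusted p below 0.05. There the log2 fold changes were 0.80 ± 0.16 (adjusted p = 0.00851) for ABF3, 1.24 ± 0.40 (adjusted p = 0.0736) for ABI5, 1.36 ± 0.49 (adjusted p = 0.112) for AFP3 and 1.89 ± 0.57 (adjusted p = 0.0549) for HB7, and 1.24% of all genes were called higher. Pools of the same number deviated together in this comparison, and with the replicate number as a block ABI5, AFP3 and HB7 were called (adjusted p = 0.00458, 0.0289 and 0.0232), as they were with the block within each P treatment. The 1.24% is from the fit to all 24 libraries without a block. No share of all genes is given for the other fits, so their calls have no background here. Pool 1 of high P bud 6 was above the other pools of its group for ABF3, ABI5, AFP3 and HB7, and without it ABF3 (1.03), ABI5 (1.66) and HB7 (2.75) were called. HB7 was also called without pool 1 or pool 2 of low P bud 6. In low P of experiment 1, 0 of 7 members were called between these buds, beside 0.0537% of all genes, and in experiment 3, 0 of 7 in high P and 0 of 7 in low P, beside 0% and 0.00443% of all genes. At an unadjusted p below 0.05 there was 1 among these, HB7 in low P of experiment 3, where 1009 of 22584 genes stood at that level.

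After withdrawal of P no member passed the test. In experiment 1, 0 of 7 members were called by limma between low P and high P in any bud, and 0 of 7 had an unadjusted p below 0.05 in any bud, where 0%, 0.00447%, 0.00447% and 0.0134% of all genes were called in buds 7, 6, 3 and 2. Of 22363 genes, 299, 1375, 1187 and 1335 had an unadjusted p below 0.05 in buds 7, 6, 3 and 2. The low P and high P ranges overlapped for every member and bud except for HB7 in bud 7, where low P gave 5.63, 5.19 and 6.36 and high P 11.2, 9.69 and 6.58. The log2 fold changes lay between -0.57 (HB7 in bud 7) and 0.55 (HB7 in bud 6). The 95% intervals were narrow for SnRK2.6 in bud 6 (-0.41 to 0.27) and ABI2 in bud 6 (-0.24 to 0.56), both inside a 2-fold change, and wide for AFP3 (-0.53 to 1.53) and HB7 (-0.64 to 1.75), which reach beyond it. Averaged over the 4 buds, the ABI5 estimate was -0.09 with an interval of -0.51 to 0.33.

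After resupply of P the ABA genes were lower, and in bud 6 all 7 members were called lower in high P than in low P, beside 5.76% of all genes. The counts were 5 of 7 in bud 7, 5 of 7 in bud 3 and 1 of 7 in bud 2, where 3.04%, 4.95% and 1.56% of all genes were called lower, and no member was called higher. Over the mean of the 4 buds all 7 were called lower, with 4.11% of all genes. The median log2 fold change of the members was -1.24 (bud 7), -1.80 (bud 6), -1.24 (bud 3) and -0.76 (bud 2), while the medians over all genes lay between -0.03 and 0.06.

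In bud 6 the high P libraries lay below the low P libraries without overlap for 7 of 7 members, as they did for 24.8% of all genes. AFP3 had 16.6, 27.2 and 29.9 after resupply, against 465, 89.96 and 272 in plants kept in low P, a log2 fold change of -3.19 ± 0.87 (adjusted p = 0.0113) by limma. ABI5 had 1063, 671 and 945 after resupply, against 4019, 4043 and 3382 in low P, and fell by 2.12 ± 0.42 on the log2 scale (limma adjusted p = 0.00198). HB7 fell by 2.51, ABF2 by 1.80, ABI2 by 1.43, SnRK2.6 by 1.42 and ABF3 by 1.22 on the same scale, with adjusted p between 8.74e-04 and 0.0113. The call of AFP3 was lost without pool 1 of low P bud 6 (-2.67, adjusted p = 0.0552), that of ABF3 without pool 2 of high P bud 6 (-1.07), and those of AFP3 and HB7 with precision weights (adjusted p = 0.119 and 0.135). In the same comparison the CDKB sum was 26552 to 27488 in high P against 11605 to 20905 in low P, the leaf sum 67916 to 121342 in high P against 126297 to 149115 in low P, and the vascular sum 3580.1 to 4793 in high P against 4413 to 5360.0 in low P, and their part in the result was not tested. In bud 7 the CDKB sum was 27734 to 30330.2 in high P against 15932 to 26928 in low P, and in bud 2 11766 to 12399.6 in high P against 6848 to 7718 in low P, both without overlap. In bud 3 the CDKB sums overlapped, at 17008 to 28719.5 in high P against 7190.0 to 25710.0 in low P, while the vascular sum was 2685 to 3709.6 in high P against 4703 to 6701 in low P. The leaf sums of buds 7, 3 and 2 and the vascular sums of buds 7 and 2 overlapped between treatments.

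In bud 7 all 7 estimates were below 0. ABI5 (-1.58), ABF2 (-1.40), SnRK2.6 (-1.24), ABF3 (-1.19) and ABI2 (-1.07) were called, while AFP3 lay at -1.76 ± 0.87 (adjusted p = 0.160) and HB7 at -0.998 ± 0.68 (adjusted p = 0.318) by limma, neither of them called. The count was 3 without pool 1 of high P bud 7 and 2 without pool 2 of high P bud 7, pool 2 of low P bud 7 or pool 3 of low P bud 7. ABF2 and SnRK2.6 kept their calls in those 4 fits.

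In bud 3 the result rested on the low P pool that stood apart. ABI2, SnRK2.6, ABF2, ABF3 and HB7 were called with it, and 0 of 7 members without it, when 1.36% of all genes were called lower. SnRK2.6 was -1.37 ± 0.27 with the pool and -0.97 without it, ABF3 was -1.43 ± 0.33 with it and -0.84 without it, and HB7 was -2.13 ± 0.68 with it and -1.35 without it. HB7 was also not called without pool 1 or pool 3 of high P bud 3, with no filter on low values or with precision weights, and 0 of 7 were called in the fit to the compared groups. In bud 2 the single call was ABI2, with 3700.1, 3333 and 3973 after resupply, against 9613, 6017 and 7681 in low P (-1.06 ± 0.32, adjusted p = 0.0379, limma). That call was lost without any of the 3 high P bud 2 pools or pools 1 or 3 of low P bud 2 and with no filter on low values, when the count was 0, and the count was 2 without pool 2 or pool 3 of low P bud 3, when HB7 joined it. In the main fit the other members were not called in bud 2. Their log2 fold changes were -0.45 for SnRK2.6, -0.86 for ABF2, -0.76 for ABF3, -0.60 for ABI5, -0.52 for AFP3 and -1.87 for HB7.

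**Figure D4:**
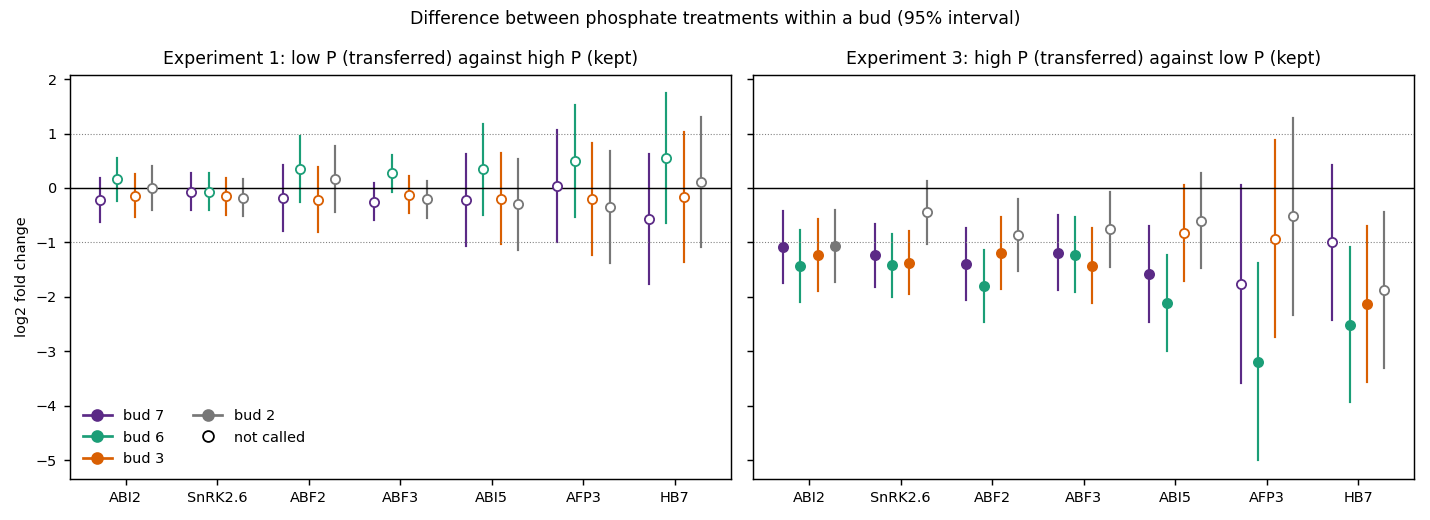
Log2 fold change between P treatments within each bud, transferred against kept plants, on the log2(normalized count + 1) scale. Points are estimates from 3 pools against 3, lines are 95% intervals, open points were not called, and the dotted lines mark a 2-fold difference. All points of experiment 1 lie within -0.57 and 0.55, and all points of experiment 3 lie below 0.

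Whether the response to P differed between buds was tested as the effect in bud 7, 6 or 3 minus that in bud 2. In experiment 1, 0 of 7 members were called in these 3 tests by limma, beside 0% of all genes in each, and 1 member, ABF3 in bud 6, had an unadjusted p below 0.05 (0.48 ± 0.23, adjusted p = 0.999). There 742 of 22363 genes had an unadjusted p below 0.05. In experiment 3, 0 of 7 were called too, beside 0.00443%, 0.0133% and 0% of all genes in buds 7, 6 and 3. Of the members, 4 had an unadjusted p below 0.05 in bud 6, and SnRK2.6 did in bud 3 (-0.92 ± 0.39, adjusted p = 0.728). The 4 in bud 6 were AFP3 (-2.67 ± 1.23), ABI5 (-1.52 ± 0.59), SnRK2.6 (-0.98 ± 0.39) and ABF2 (-0.93 ± 0.45), with adjusted p between 0.505 and 0.581. The 95% intervals were wide, -5.23 to -0.10 for AFP3 and -2.76 to -0.28 for ABI5, so the larger counts of called members in bud 6 than in bud 2 are not shown to be a difference between the buds.

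Some members changed by other amounts than SnRK2.6 did. Each was set against SnRK2.6 in the same library, and the difference of the log2 fold changes was tested in the same way. In bud 6 against bud 2, HB7 lay below SnRK2.6 in both treatments of both experiments, at a difference of -2.07 ± 0.51 (adjusted p = 4.08e-04) in low P and -2.41 ± 0.51 (adjusted p = 6.73e-05) in high P of experiment 1, and -1.64 ± 0.60 (adjusted p = 0.0126) in high P and -1.98 ± 0.60 (adjusted p = 0.00368) in low P of experiment 3 (limma). In these 4 comparisons 6.27%, 6.6%, 2.83% and 3.15% of all genes were called below SnRK2.6. With a pseudocount of 10, HB7 was called in 1 of the 4, low P of experiment 3, and the values in the others were -0.51 and -0.41 in low P and high P of experiment 1 and -0.46 in high P of experiment 3. The call in high P of experiment 3 was also lost under quantile normalization (-0.83) and without pool 3 of high P bud 6 (-1.04).

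ABI5 lay above SnRK2.6 in low P of experiment 3 (1.37 ± 0.34, adjusted p = 7.46e-04), where 79.9% of all genes were called above it. In high P of experiment 3, AFP3 was called below SnRK2.6 with a replicate block (-1.40, adjusted p = 0.00445 with the block within each P treatment). On resupply, AFP3 fell further than SnRK2.6 in bud 6 (-1.76 ± 0.75, adjusted p = 0.0338, beside 0.886% of all genes), a call lost without pool 1 or pool 3 of high P bud 6, without pool 1 or pool 3 of low P bud 6, with a pseudocount of 10 and under quantile normalization, at values between -1.74 and -1.38. ABI2 differed from SnRK2.6 by 0.03 ± 0.27 (adjusted p = 0.926) and -0.03 ± 0.27 (adjusted p = 0.928) in low P and high P bud 6 of experiment 1.

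Most members also varied together between pools of the same group. Deviations from the group means on the log2 scale were correlated across the 24 libraries of an experiment, which share depth and scaling for all genes, so the values describe these libraries. Pairs of other genes were not measured, so the co-variation is not shown to be particular to the members. Over the 21 pairs of members Pearson's r ranged from -0.264 to 0.894 in experiment 1, with a median of 0.537, and from 0.291 to 0.924 in experiment 3, with a median of 0.628. Without the 3 low P bud 3 pools, a choice made after seeing the data, the median of experiment 3 was 0.375 over 21 libraries. In experiment 1 the 6 pairs with SnRK2.6 had a median r of 0.0670, against 0.621 for the 15 pairs of the other members. In experiment 3 these medians were 0.585 against 0.660 over all 24 libraries, and 0.192 against 0.505 without the low P bud 3 pools. The closest pairs were ABF3 with ABI5 in experiment 1 and ABI2 with ABF3 in experiment 3.

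Some pools stood high or low for most members at once. In experiment 1 the mean deviation of the 7 members was above 0 in all 8 groups for pool 1, between 0.0887 and 0.597, and below 0 in all 8 groups for pool 3, between -0.454 and -0.101. ABI5 was lowest in pool 3 in 7 of 8 groups, and AFP3 in 6 of 8. In experiment 3 the same number did not share a direction, with 4, 2 and 4 of 8 groups above 0 for pools 1, 2 and 3. Pool 3 of low P bud 3 had all 7 members above the group mean, by 1.24 on average, pool 1 of low P bud 2 had all 7 above it by 0.636, and pool 2 of low P bud 2 had all 7 below it, at -0.590.

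**Figure D5:**
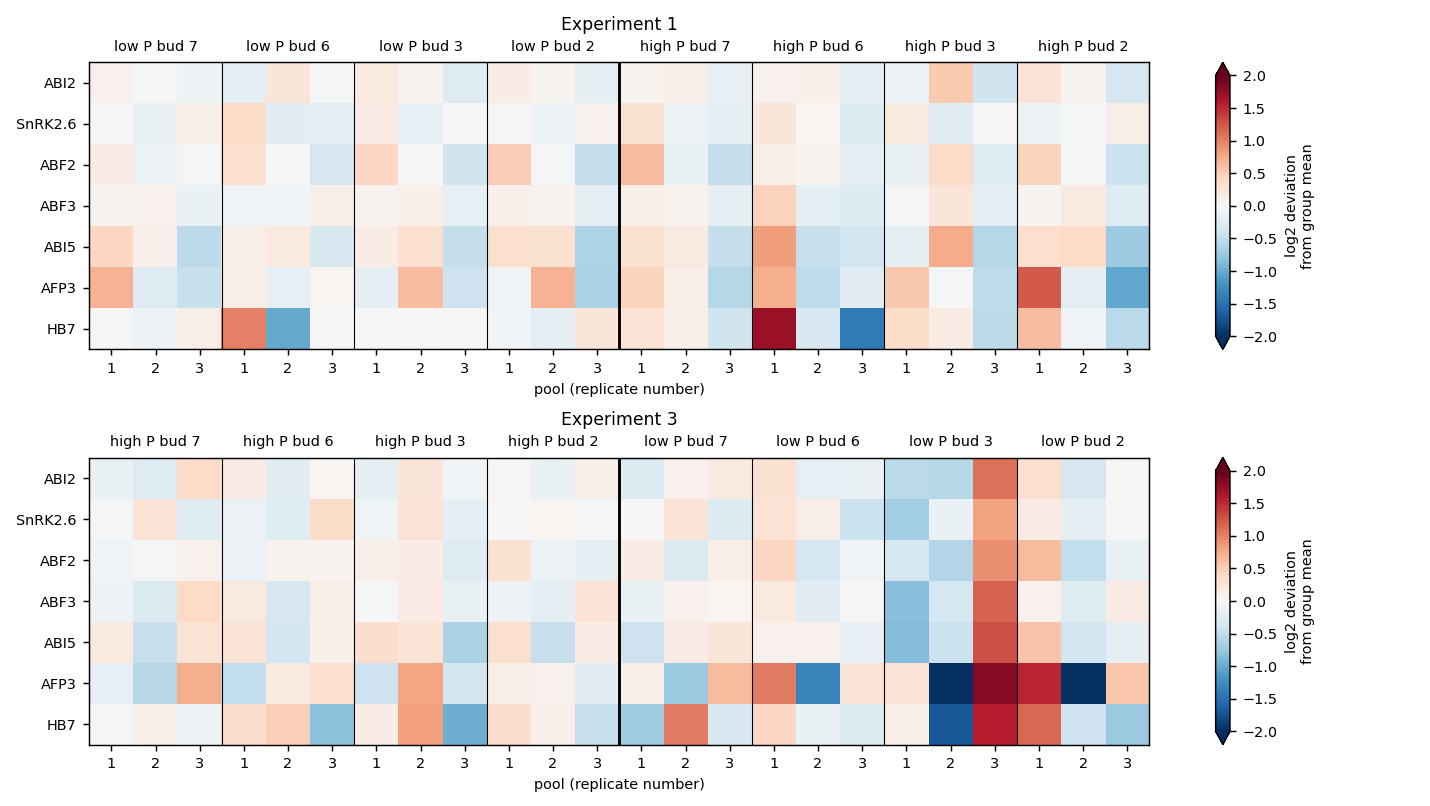
Deviation of each member from the mean of its group, on the log2(normalized count + 1) scale, for the 24 libraries of each experiment. Columns are pools 1, 2 and 3 within each group, red is above and blue below the group mean, and the colour scale ends at 2 units in either direction. Pool 3 is mostly blue across experiment 1, and in experiment 3 the strongest colours are in low P buds 3 and 2.

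Other genes of the pathway gave context for the 7. The lists were drawn from descriptions in the study's tables, with results of these data known. Of 8 further signalling genes, 5 were called lower and 0 higher in bud 6 against bud 2 in each treatment of experiment 1. There 21.8% (low P) and 23.5% (high P) of all genes were called lower. In experiment 3 the counts were 7 lower in high P and 5 lower in low P, beside 18.8% and 13.4% of all genes. The 8 include PP2C ABI1-type b (Peaxi162Scf00198g00015.1), a phosphatase of the same class as ABI2, with a log2 fold change of -4.99 ± 0.63 (adjusted p = 8.68e-06) in high P of experiment 3, and AFP1, a relative of AFP3, with -3.54 ± 0.40 (adjusted p = 3.86e-06) in the same comparison. The second ABF2 locus, ABF2 second (Peaxi162Scf00152g00029.1), had log2 fold changes of -0.75 in low P and -0.75 in high P of experiment 1, both past the adjusted p threshold but less than 2-fold. On resupply 5, 6, 3 and 1 of the 8 were called lower in buds 7, 6, 3 and 2 of experiment 3. Of all genes, 3.04%, 5.76%, 4.95% and 1.56% were called lower there. The bud 3 count was 1 without pool 3 of low P bud 3, beside 1.36% of all genes. On resupply AFP1 in bud 6 was -3.41 ± 0.40 (adjusted p = 4.45e-05) by limma.

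Receptor genes act upstream of the 7. Of 7 receptor genes tested out of 8 listed, 1 was called higher and 4 lower in bud 6 against bud 2 of experiment 1 in high P. There 16.7% of all genes were called higher and 23.5% lower. In high P of experiment 3, 1 was called higher and 0 lower, beside 13.1% and 18.8% of all genes. The higher gene was PYR1-type c (Peaxi162Scf00009g00132.1) in both, at 1.23 ± 0.30 (adjusted p = 0.00106) in experiment 1 and 1.56 ± 0.61 (adjusted p = 0.0304) in experiment 3, whereas PYR1-type b had -2.27 ± 0.22 (adjusted p = 2.19e-08) in experiment 1 and -0.33 ± 0.38 (adjusted p = 0.454) in experiment 3. Among 8 genes of ABA synthesis and breakdown, NCED3, the dioxygenase that makes the first committed cleavage product of ABA, fell in high P of both experiments, at -3.43 ± 0.45 (adjusted p = 1.08e-06) in experiment 1 and -3.09 ± 0.68 (adjusted p = 7.82e-04) in experiment 3. ABA 8-hydroxylase genes, which break ABA down, went both ways between bud 6 and bud 2 in high P of experiment 3. There ABA 8-hydroxylase 4 b was at 2.23 ± 0.60 (adjusted p = 0.00316) and ABA 8-hydroxylase 1 b at -6.30 ± 0.64 (adjusted p = 1.62e-06) in bud 6 against bud 2 (limma). On resupply, 1, 1, 0 and 2 receptor genes were called higher in buds 7, 6, 3 and 2. In each of these buds 1 receptor gene was called lower, though 0 in bud 3 without pool 3 of low P bud 3. Of the 8 synthesis and breakdown genes, 0, 2, 0 and 0 were called lower and 0 higher. Of all genes, 3.04%, 5.76%, 4.95% and 1.56% were called lower, and 295, 414, 646 and 275 of 22584 higher.

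Genes that respond to ABA and drying were mostly lower in the apical buds. Of 12 tested in experiment 1, 9 (low P) and 11 (high P) were called lower in bud 6 against bud 2, beside 21.8% and 23.5% of all genes. The medians of the 12 were -3.14 (low P) and -3.78 (high P) on the log2 scale. Of 15 tested in experiment 3 the counts were 13 in high P and 12 in low P, beside 18.8% and 13.4%. After resupply 10 of 15 were called lower in bud 6, with a median of -2.95, and 6, 8 and 4 in buds 7, 3 and 2. Of all genes, 5.76%, 3.04%, 4.95% and 1.56% were called lower in buds 6, 7, 3 and 2. The bud 3 count was 3 without pool 3 of low P bud 3, beside 1.36% of all genes. In experiment 1, 0 of 12 were called in any bud after withdrawal, where at most 0.0134% of all genes were. RD22, a dehydration-induced gene, fell in bud 6 against bud 2, at -5.09 ± 0.67 (adjusted p = 1.21e-05) in high P of experiment 3, and was not called on resupply in bud 6 (-0.35 ± 0.67, adjusted p = 0.731). NAC072, a drought-induced transcription factor, fell in both comparisons, at -4.53 ± 0.91 (adjusted p = 3.59e-04) by position and -2.95 ± 0.91 (adjusted p = 0.0210) on resupply (limma).

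Likeness of pattern was measured as Pearson's r over the 16 group means, each experiment centred on its own mean, among 19242 genes whose mean reached 50 in both experiments. The nearest gene to ABI2 was Peaxi162Scf00434g00079.1 (r = 0.996), which the study's table describes as a GID1C gibberellin receptor, and the nearest to SnRK2.6 was Peaxi162Scf00592g00441.1 (r = 0.993), described as a glutathione S-transferase. For HB7 it was Peaxi162Scf00550g00428.1 (r = 0.989), a protein of unknown function, and for ABF2, ABF3, ABI5 and AFP3 it was Peaxi162Scf00915g00249.1 (0.995), Peaxi162Scf00133g00611.1 (0.995), Peaxi162Scf00366g00032.1 (0.979) and Peaxi162Scf00048g00816.1 (0.983), for which no description was used here. Among the members themselves the group means of ABI2 were closest to those of ABF2 and ABF3, and those of SnRK2.6 and ABI5 were the least alike. These are descriptions over 16 points that share scaling and controls.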

How the data were processed

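RNA of petunia axillary buds was measured in 48 libraries, 24 in each of 2 experiments, with 3 pools for each of 8 groups. Reads were trimmed with Trim Galore and quantified with Salmon against a P. axillaris genome in the nf-core/rnaseq workflow, in different releases for the 2 experiments, with FastQC and STAR also named in the submitters' processing notes. The deposited tables hold a signal per gene and library, estimated counts that the authors normalized with DESeq2, separately for each experiment. The steps between low values differ from gene to gene, so whole reads were not recovered, raw depth is not known and no counting interval is given.

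Genes with a mean of at least 10 were kept, log2(value + 1) was taken, and 8 group means were fitted to all 24 libraries of an experiment with limma 3.58.1 (moderated test with a trend, two-sided) in R 4.3.3. P-values were adjusted by the Benjamini-Hochberg method over all tested genes within each comparison. The fit was also run on simulated data with independent noise in each library, which does not cover libraries that share plants. Each replicate pooled buds of several plants. By the number of plants grown, the buds of a P treatment must share plants, and equal pool numbers may mark them, while the 2 treatments held different plants. The fit was made without a block, and values with a block are given where they change a call. Pools of the same number deviated together in every pair, with correlations over 0.1, in 10 of 16 comparisons of experiment 1, for example 0.238 to 0.392 between high P buds 7 and 6, and in 2 of 16 of experiment 3. Members, lists and comparisons were chosen with earlier results of these data known, and gene names were taken from the study's tables, whose fold changes and p-values were not used. All 7 members are named, other pathway genes only as examples of their list, and the likeness genes by the highest r for each member. Alternatives were another pseudocount, no filter, upper quartile and quantile scaling, precision weights, a replicate block, a fit to the compared groups, no fold threshold and leaving out each library, and the counts over gene lists without low P bud 3 pool 3 were added after seeing the data. Tables and plots were made with Python 3.11.15, pandas 2.3.3 and matplotlib 3.10.9.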

Additional observations from a re-analysis of the deposited data

How the results depend on the processing

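No member's direction was reversed in any called comparison. Of the counts of members called, those that changed most were in experiment 3. In low P bud 3 against bud 2 the count of 4 became 0 when the fit held the compared groups only, and leaving out 1 library gave 0 to 6. In bud 3 on resupply the count of 5 became 0 in the fit to the compared groups, and leaving out 1 library gave 0 to 6. In bud 2 on resupply the count of 1 became 2 with a pseudocount of 10, quantile normalization, precision weights or the compared groups only, and 0 with no filter on low values, and leaving out 1 library gave 0 to 2. In bud 7 on resupply leaving out 1 library gave 2 to 5. In bud 3 against bud 2 of experiment 1, the count of 0 became 1 in each treatment without a fold threshold. Over the other counts, leaving out 1 library gave 6 to 7 (low P) and 7 (high P) in bud 6 and 5 to 6 and 6 in bud 7 against bud 2 of experiment 1, 5 in bud 3, 7 in bud 6 and 7 in bud 7 of high P and 4 to 6 in bud 6 and 5 to 6 in bud 7 of low P in experiment 3, 6 to 7 in bud 6 on resupply, and 0 for bud 3 against bud 2 and each P contrast of experiment 1 and each difference of the P response between buds. Without the 4 high P pool 1 libraries of experiment 1 no call was lost and HB7 was called between high P buds 7 and 6 (2.61).

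The members that differed from SnRK2.6 in bud 6 against bud 2 depended on settings. The count of 1 in each treatment of experiment 1 became 0 with a pseudocount of 10 and 2 without a fold threshold. There 20145 (low P) and 20152 (high P) of 22362 genes had an unadjusted p below 0.05 relative to SnRK2.6. In high P of experiment 3 the count of 1 became 0 with a pseudocount of 10 or quantile normalization, 2 in the fit to the compared groups and 5 without a fold threshold. In that comparison 20893 of 22583 genes had an unadjusted p below 0.05 relative to SnRK2.6, so the count of 5 is not particular to the members. On resupply in bud 6 the count of 1 became 0 with a pseudocount of 10 or quantile normalization. Leaving out 1 library gave 1 to 2 in each treatment of experiment 1 (2 without pool 3 of high P bud 2, pool 1 of high P bud 6 or pool 2 of low P bud 2), 1 to 2 in high P (2 without pool 3 of high P bud 2, pool 2 of low P bud 2 or pools 2 or 3 of low P bud 3) and 2 in low P of experiment 3, and 0 to 1 on resupply (0 without pools 1 or 3 of high P bud 6 or pools 1 or 3 of low P bud 6).

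Single calls were also lost for HB7 in bud 3 on resupply (no filter or precision weights), for SnRK2.6 (no filter) and HB7 (precision weights) in low P bud 7 against bud 3 of experiment 3, and for both in the fit to the compared groups. Of the members' log2 fold changes, relative ones included, 3 calls were lost with no filter, 4 with precision weights, 4 with a pseudocount of 10, 3 under quantile normalization and 11 in the fit to the compared groups, and 11 were gained without a fold threshold.

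With the replicate number as a block over an experiment, 5 calls were gained, ABI5, AFP3 and HB7 in high P bud 7 against bud 6 of experiment 1 (a count of 3), AFP3 in low P bud 7 against bud 2 of experiment 3, and AFP3 relative to SnRK2.6 in high P bud 6 against bud 2 of experiment 3 (a count of 2). The block within each P treatment gained these 5 and 3 more, AFP3 in high P bud 3 and low P bud 6 against bud 2 and in high P bud 6 against bud 3 of experiment 3. Neither block lost a call, and the share of all genes called with a block is not given here. Quantile normalization moved the median over all genes in high P bud 6 against bud 2 of experiment 1 to 0.13, against -0.06 with the deposited scaling, and the all-gene calls to 4948 higher and 4250 lower, against 3735 and 5248.

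The tables hold scaled values, so depth cannot be weighed gene by gene, and 3 pools a group leave wide intervals for AFP3 and HB7.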
